A study of Mus musculus with 24 samples.

Results

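Glial and Schwann cell markers were followed in muscle stem cells through the first days of muscle regeneration. The set holds 8 genes chosen by name: Sox10, Mbp, S100b, Ngfr, Erbb3, Cdh19, Foxd3 and Pmp22. Of these, 7 were matched by symbol among the 17111 genes of the deposited table, and all 7 passed the filter on low values. Foxd3 was not analysed here. The set was drawn up with the measured values in view, because 1 library, KO day 4 replicate 3, held several of these transcripts at unusually high levels. The values of that library, and every comparison with its group, are therefore given as a description with no test.

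The study profiled RNA from mouse muscle stem cells by bulk sequencing, in 24 libraries that form 6 groups of 4. The WT mice carry the label L2A-WT. The KO mice carry the label L2A-Pax7CreER, in which a drug-inducible Cre recombinase under the control of the muscle stem cell gene Pax7 acts on Lamp2a, the isoform of a lysosomal membrane protein that serves as the receptor of chaperone-mediated autophagy. The labels name Pax7CreER for the KO mice only, so that the Cre and the loss of Lamp2a cannot be told apart. Muscle was uninjured (day 0) or had received 50 µL of 10 µM cardiotoxin, a venom toxin that destroys muscle fibres, 1 or 4 days earlier. The age and sex of the mice, the drug that induces the Cre, and the markers by which the cells were sorted are not given in the sources used here, and nothing says that the 4 replicates of a group are separate animals. The p-values thus measure only the spread between these libraries, which may be technical.

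Schwann cells are the glia of peripheral nerves: they wrap the motor axons that run through muscle and cap the neuromuscular junction. Sox10 is the transcription factor that specifies and maintains them from the neural crest onwards, and it drives the genes of compact myelin, among them Mbp and Pmp22. Their growth and survival depend on neuregulin, which is carried by axons and is read by the receptor Erbb3, while the low-affinity neurotrophin receptor Ngfr, also called p75, marks immature, non-myelinating and injury-activated Schwann cells. Several of the markers are not restricted to glia: Pmp22 was first described as a growth-arrest gene of fibroblasts, Ngfr and Erbb3 occur in other cells of muscle, and some products of the Mbp locus are made by immune cells.

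Total counts ran from 11.58 to 22.47 M per library. Values are the authors' normalised counts, on a linear scale on which 1 read is worth 0.0415 to 0.0913, depending on the library. A gene with 0 reads is listed at a small value rather than at 0, and 3 counts, the upper limit that a count of 0 allows, correspond to a value between 0.145 and 0.32. This limit covers counting error only. The total transcript of Lamp2, of which Lamp2a is 1 isoform, ranged from 529.5 to 608.1 in KO and from 509.3 to 869.7 in WT libraries at day 0, a gene-level value that does not resolve the isoform. All 10 listed muscle stem cell markers, such as Pax7, Myf5 and Vcam1, were in the table. Over both genotypes their summed level was 2600 to 3480 at day 0, 4290 to 7340 at day 1 and 1220 to 1400 at day 4. In bulk samples, fewer cells of a type and less RNA per cell cannot be told apart.

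Upstream sequences were available in RefSeq (build GRCm38.p6) for 4 of the 8 genes, S100b, Ngfr, Foxd3 and Pmp22. Those of S100b and Pmp22 are shown because these are the members whose level passed the test between days in both genotypes, and because Pmp22 has 4 annotated starts whose transcripts the gene-level counts sum. Each sequence is the 250 bases before the annotated start, on the plus strand, and capitals mark the core of the SOX family binding motif, searched on both strands as ACAANG and CNTTGT. Of the classical pair of Pmp22 promoters, the upstream one is known to serve myelinating Schwann cells and the downstream one other tissues.

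S100b, chr10:76253586-76253835: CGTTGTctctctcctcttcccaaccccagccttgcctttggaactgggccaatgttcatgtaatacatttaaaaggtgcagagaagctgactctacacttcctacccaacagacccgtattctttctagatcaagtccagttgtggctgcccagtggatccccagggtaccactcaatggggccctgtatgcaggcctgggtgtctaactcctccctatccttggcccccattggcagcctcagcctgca

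Pmp22 first start, chr11:63128732-63128981: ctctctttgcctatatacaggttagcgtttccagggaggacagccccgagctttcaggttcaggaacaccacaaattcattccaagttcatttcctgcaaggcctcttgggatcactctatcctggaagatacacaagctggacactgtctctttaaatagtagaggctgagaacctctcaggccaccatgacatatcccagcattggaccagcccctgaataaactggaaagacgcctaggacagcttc

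Pmp22 second start, chr11:63131207-63131456: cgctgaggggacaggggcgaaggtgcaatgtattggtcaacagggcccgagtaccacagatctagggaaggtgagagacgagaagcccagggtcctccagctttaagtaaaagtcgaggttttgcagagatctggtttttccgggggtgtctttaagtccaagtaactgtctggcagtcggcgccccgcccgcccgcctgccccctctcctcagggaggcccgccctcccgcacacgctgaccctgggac

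The S100b window held 1 SOX core, at its far end, and the Pmp22 windows shown held 0. The motif is short and common: 36.3% of 32851 upstream windows of the same length held it. The E-box, CANNTG, to which MyoD family factors bind, occurred at 1 place in the S100b window, apart from the SOX core, at 2 places in the Ngfr window, and at 0 places in either Pmp22 window shown, against 66.2% of all windows with at least 1. Of the Pmp22 windows not shown, that of the third start held 1 E-box and that of the fourth 0, and each held 0 SOX cores. These matches describe letters in these windows and nothing about binding. Which Pmp22 start the counted reads came from was not resolved.

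The 7 genes differed greatly in how many reads they gave. Pmp22 had 110706 counts over the 24 libraries and Mbp 3667, and both were above a value of 1 in every library. Erbb3 had 1372 counts, Ngfr 1048 and S100b 665. Cdh19, a cadherin of Schwann cell precursors, had 383 counts and none in 17 of 24 libraries, and Sox10 had 246 counts and none in 14. Sox10 and Cdh19 each reached a value of 1 in only 6 libraries, so they entered the tests through the few groups in which they were high.

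**Figure D1:**
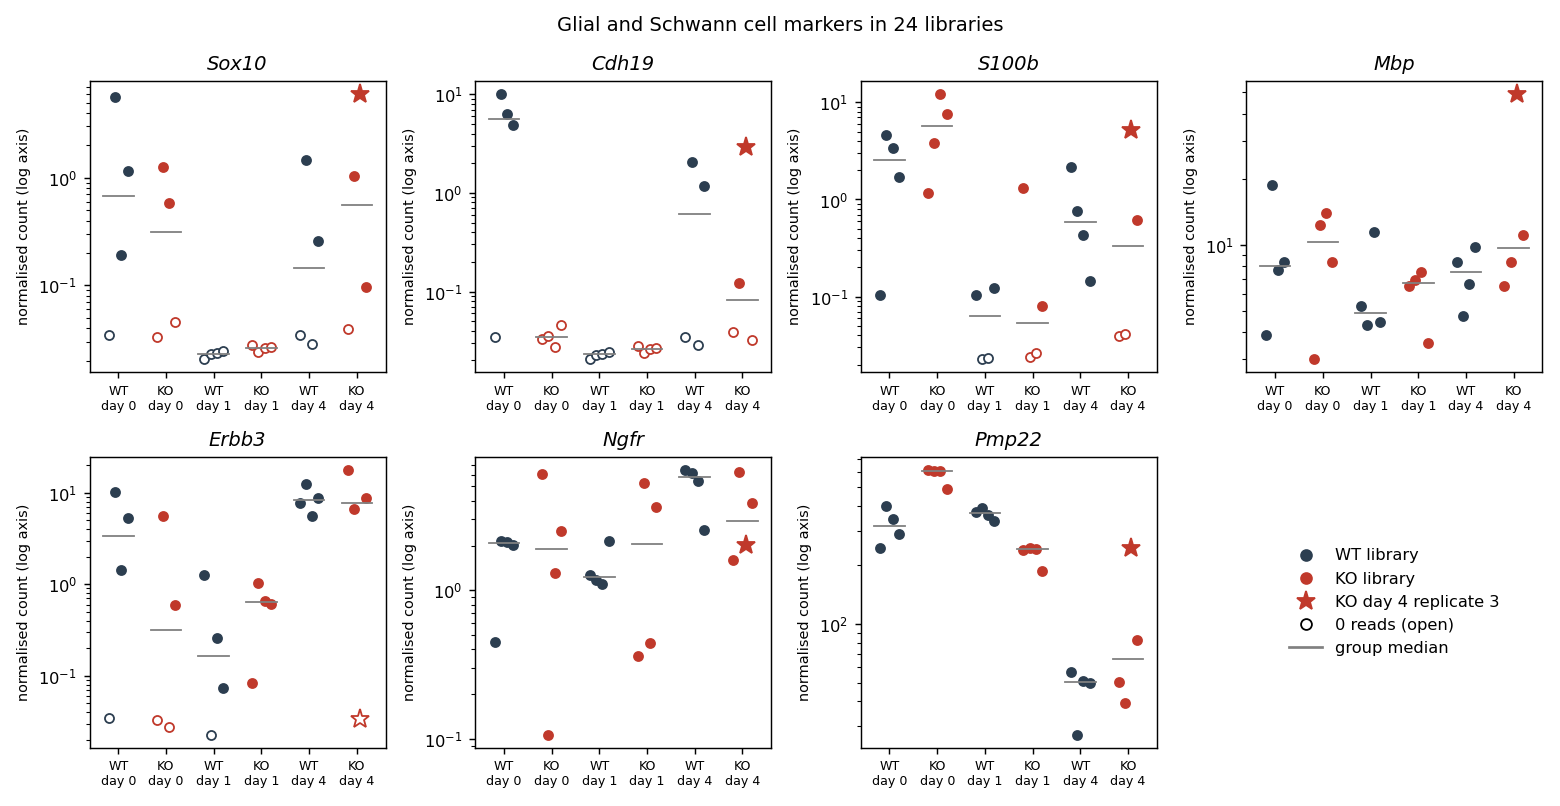
Normalised counts (log axis) of the 7 measured genes in each of the 24 libraries, by group; points are libraries, grey lines group medians, open symbols libraries with 0 reads, and the star is KO day 4 replicate 3. Sox10 and Cdh19 have 0 reads in all 8 day 1 libraries, Pmp22 is lower in every day 4 library but the starred one than in any library of days 0 and 1, and Erbb3 is above 5 in all WT day 4 libraries.

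In KO day 4 replicate 3, several myelin and Schwann cell transcripts stood far above their levels in the other 3 libraries of its group. Sox10 was 5.98 there, from 87 reads that make up 35.4% of all Sox10 reads of the study, and 0.0393 to 1.03 in the other 3. Mbp, a major protein of the myelin sheath, was 49.0 against 6.48 to 11.1. S100b, a calcium-binding protein of glia, was 5.22 against 0.0393 to 0.616.

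Cdh19 was 2.9 in this library, with at most 1 read in each of the other 3. Pmp22 was 246 against 39.1 to 82.6, next to the lowest uninjured WT library, which was also at 246 when rounded. The pair of receptors did not share the pattern: Ngfr was 2.01, within the 1.61 to 6.29 of the other 3, and Erbb3 had 0 reads, where the other 3 were at 6.7 to 17.7. Thus 5 of 7 genes were highest of their group in this library and 1 was lowest.

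Against all other libraries the picture was narrower. Mbp was 2.6 times its next highest value, but Sox10 only 1.07 times its own, and both next highest values belonged to WT day 0 replicate 2. S100b was exceeded in 2 other libraries, Cdh19 in 3 and Pmp22 in 12.

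Schwann cell genes outside the set were read in the same libraries. Of 28 listed genes 16 were in the table, 13 of them had more than 3 reads in KO day 4 replicate 3, and 7 of those exceeded every other KO day 4 library: Prx, Mal, Cnp, Gldn, Gjc3, Art3 and Gpr37l1. With no minimum of reads it was the highest of its group for 9 of the 16, and so was WT day 1 replicate 1 in its own group. The share of all genes that were highest of their group in KO day 4 replicate 3 was not counted. Cnp, an enzyme of non-compact myelin, was 23 there, the highest of all 24 libraries, and its next highest value was 16.7 in KO day 0 replicate 2. Gldn, which gathers sodium channels at nodes of Ranvier, was 6.52 against 0.0411 (0 reads) to 0.422 in the other 3 libraries of the group, and 13 in WT day 0 replicate 2. Prx, a scaffold protein of myelinating Schwann cells, was 5.09 against 0.0411 (0 reads) to 3.02, and Mal, a proteolipid of myelin, was 8.57 against 0.0393 (0 reads) to 1.11. Both were higher in day 0 libraries, at 8.35 and 12 in WT day 0 replicate 3. Dhh, a hedgehog ligand that Schwann cells secrete to form the perineurium, did not go with them: it was 0.102 in KO day 4 replicate 3, from under 3 reads, and 12.4 in KO day 0 replicate 2. Nor did the rest of the 13 genes. Drp2 was 95.2 there against 105 to 133 in the other libraries of the group, and Itgb4 was 0.99 against 1.11 to 2.95. Egr2, Scn7a, Ptprz1 and Sox9 lay within the range of those libraries.

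**Figure D2:**
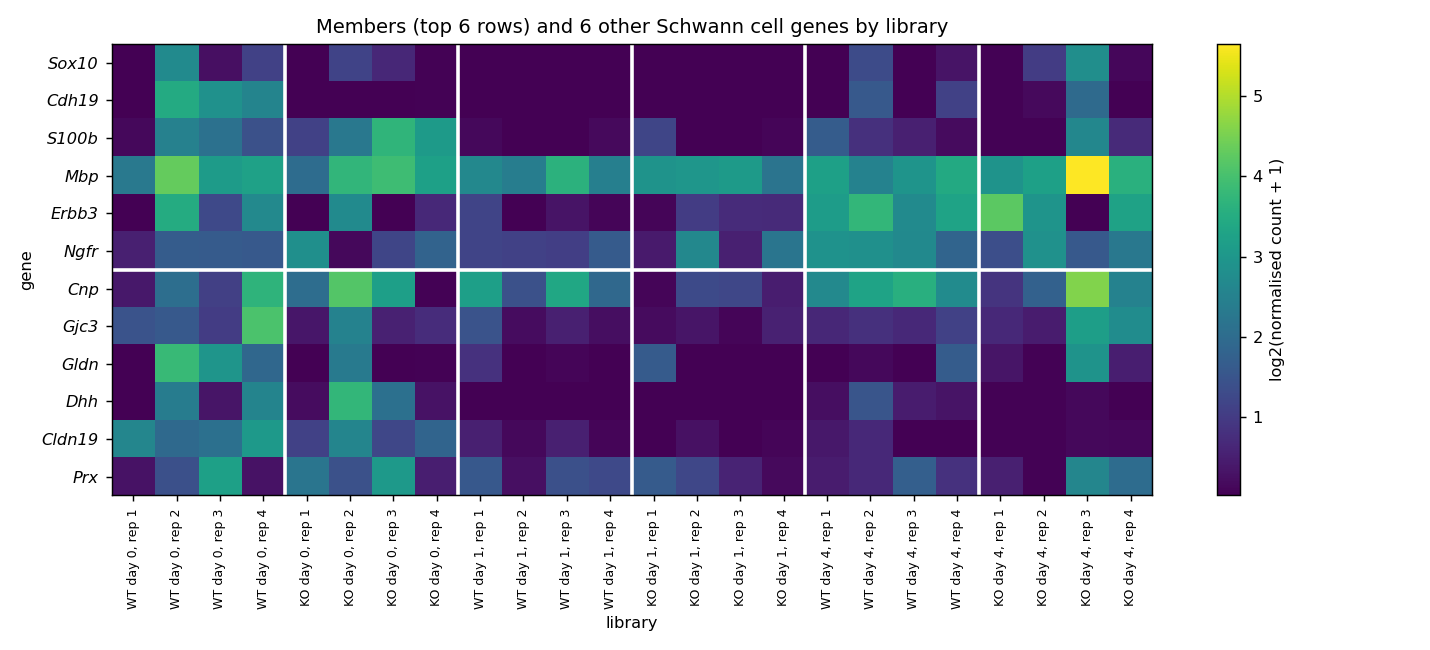
Levels, as log2 of the normalised count plus 1, of 6 members (Pmp22 left out for its scale) and 6 other Schwann cell genes (rows) in the 24 libraries (columns, grouped by genotype and day). Sox10, Mbp and Cnp are brightest in KO day 4 replicate 3, and WT day 0 replicate 2 is the next brightest for Sox10 and Mbp.

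Among all other genes that reached 10 in this library, 15 were taken by the ratio to the highest of the other 23. The top gene was Ncmap, a membrane protein of peripheral myelin, at 39.8 against 4.66, a ratio of 8.53. The remaining 14 were not mainly myelin genes. They included Sfrp2 (102 against 14.7), a secreted Wnt modulator, and the matrix genes Cilp (152 against 37.5), Mfap2 (55.0 against 13.7) and Lum (142 against 40.3). Lgi1, a secreted protein of nervous tissue, was 12.1 against 3.62.

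The summed level of 10 fibro-adipogenic progenitor markers was 2700 in KO day 4 replicate 3, the highest of 24 libraries, and 859 to 1600 in the other 3 of its group. The summed level of muscle stem cell markers was 1270 there, and 1240 to 1400 in the group as a whole. Macrophage and monocyte markers summed to 909, at the bottom of the group's range of 909 to 987. The part of these cell types in the Schwann cell values was not tested. Across the transcriptome, 6.04% of the 8144 genes at 10 or more in this library were at their highest of 24 there, a share that ran from 2.13% to 13.5% in the other libraries.

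**Figure D3:**
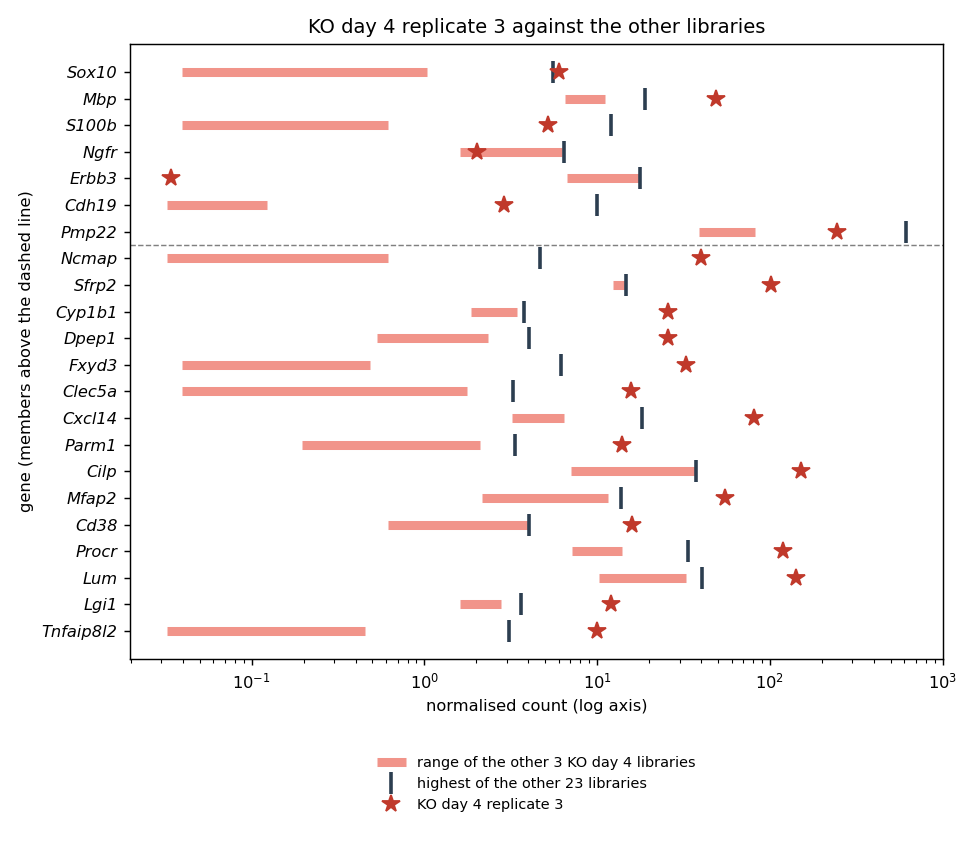
Normalised count (log axis) of the 7 members (above the dashed line) and of the 15 other genes with the highest ratio in KO day 4 replicate 3 (star), with the range of the other 3 KO day 4 libraries (bar) and the highest of the other 23 libraries (tick). Mbp and Sox10 are the only members with the star at or beyond the tick, and Erbb3 lies far to the left at 0 reads.

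The tests below compare groups other than KO day 4, with limma over 16985 genes and Benjamini-Hochberg adjustment within each comparison. KO day 4 replicate 3 is in none of the groups compared, but it enters the shared estimate of spread, and every test was repeated on the other 23 libraries. In KO against WT at day 0, 1 of the 7 genes passed the test, Cdh19, where 9.75% of all genes did. Without the library set apart Pmp22 passed too, and the share of all genes was 9.76%. In KO against WT at day 1, 0 of 7 passed, where 9.2% of all genes did, and without that library 1 passed, Pmp22, where 9.22% did.

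In WT cells from day 0 to day 1, 2 of 7 were lower (S100b and Cdh19) and 0 higher, where 24.9% of all genes were lower and 27.7% higher. From day 0 to day 4, 2 were lower (Pmp22 and Cdh19), where 18.9% of all genes were lower, and 0 were higher, where 25.7% were. From day 1 to day 4, 2 were higher (Erbb3 and Ngfr), where 27.8% of all genes were, and 1 was lower (Pmp22), where 22.6% were. In KO cells from day 0 to day 1, 2 were lower (Pmp22 and S100b), where 21.5% of all genes were, and 0 were higher, where 24.2% were. The change of the genotype difference from day 0 to day 1 passed for 1, Pmp22, where 11.6% of all genes passed. Without KO day 4 replicate 3 it also passed for Cdh19 (limma adjusted p = 0.0329, and 0.0533 with all libraries), where 11.7% of all genes passed. It did so too without WT day 0 replicate 1 (0.000938), the 1 WT day 0 library with 0 Cdh19 reads. In all it was called in 5 of 33 settings, and not by edgeR or DESeq2 (0.177). Both day 1 groups had 0 Cdh19 reads, so this change restates the day 0 difference. The median log2 difference of the 7 genes was -1 from day 0 to day 1 in WT, beside -0.01 over all genes, and 0.67 from day 1 to day 4, beside 0.22.

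**Figure D4:**
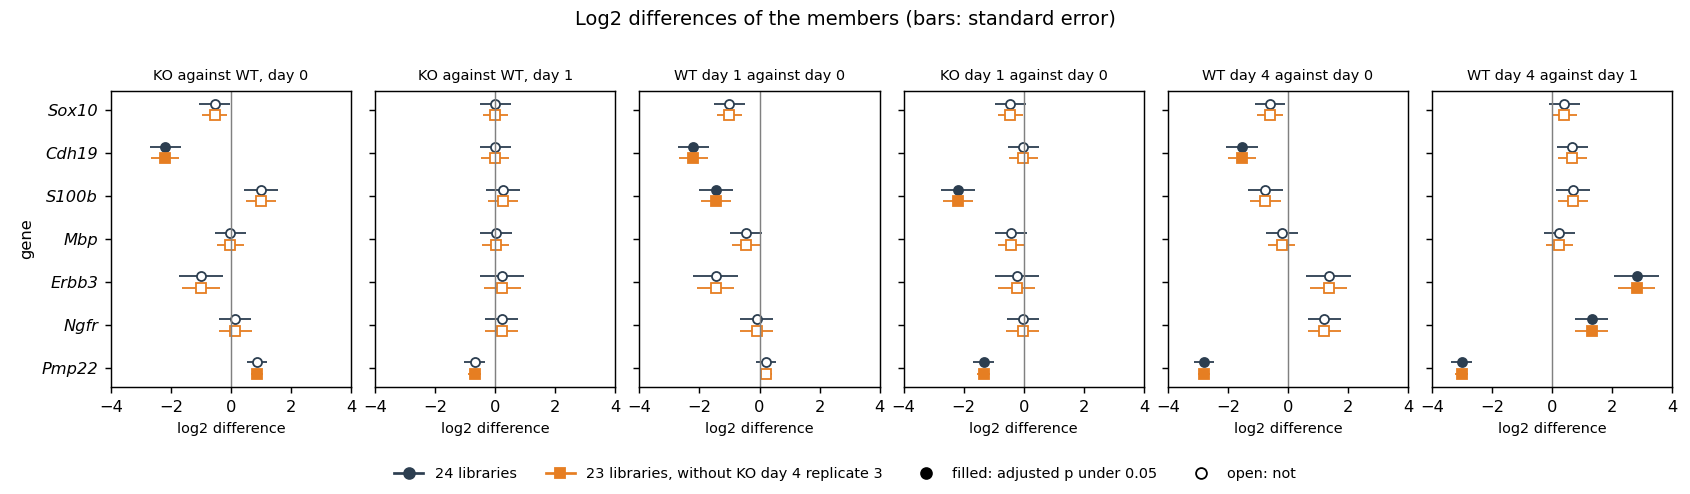
Log2 differences, on the scale of log2 of the normalised count plus 1, of the 7 genes in 6 comparisons, with standard errors as bars; circles are from 24 libraries, squares from 23 without KO day 4 replicate 3, and filled symbols have an adjusted p under 0.05. Pmp22 is filled in the 2 genotype comparisons only without that library, and no other gene changes between filled and open.

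Sox10 was read in 3 of 4 WT libraries at day 0 and in none at day 1. The 4 WT day 0 libraries had values of 0.0344 (0 reads), 5.58, 0.192 and 1.16, and the 4 WT day 1 libraries had 0 reads each. The mean of 1.74 ± 2.61 (SD, n = 4) at day 0 was at least 10.9-fold above the limit that 3 reads per library allow at day 1. Most of that mean came from WT day 0 replicate 2, without which the bound was 2.89-fold. The log2 difference was -1 ± 0.51 (SE), which limma did not call (adjusted p = 0.107) unless quantile normalization was used (0.0314) or WT day 0 replicate 1 was left out (0.0429), and which edgeR (0.0208) and DESeq2 (0.0144) called on the recovered counts.

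KO cells had Sox10 values of 0.0332 (0 reads), 1.25, 0.58 and 0.0457 (0 reads) at day 0, and 0 reads in all 4 libraries at day 1. At day 4 some libraries had reads again: the WT values were 0.0345 (0 reads), 1.47, 0.0287 (0 reads) and 0.259. The groups at day 0 and day 4 overlapped in both genotypes. The order of group means was KO day 4 (1.78, or 0.388 without replicate 3), WT day 0 (1.74), KO day 0 (0.478) and WT day 4 (0.447), with overlap between all neighbours, and then both day 1 groups at 0 reads.

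Cdh19 had most of its reads, 292 of 383, in WT cells at day 0. The 4 WT libraries had 0.0344 (0 reads), 10.0, 6.35 and 4.89, while all 4 KO libraries had 0 reads. With 3 reads per library as the limit, the WT mean of 5.33 ± 4.14 (SD, n = 4) was at least 21.4-fold higher than in KO, although 1 WT library shared the 0 of the KO group. The log2 difference was -2.19 ± 0.52 (SE; limma adjusted p = 0.00811, and 0.00417 without KO day 4 replicate 3). The call was not made when only the compared groups were fitted (0.256) or by edgeR (0.0591), and it was made by DESeq2 (0.0341). The filter asked for a value of 1 in 4 libraries, and Cdh19 met it only through WT day 0, the group in which it was high. Its p-values against that group, here and below, are thus to be read as a description.

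All 8 day 1 libraries had 0 Cdh19 reads, so that in WT it was at least 33.2-fold lower than at day 0 (log2 difference -2.20 ± 0.52; limma adjusted p = 0.00094). At day 4 the WT values were 0.0345 (0 reads), 2.04, 0.0287 (0 reads) and 1.18, lower than at day 0 in the limma fit (-1.53 ± 0.52; limma adjusted p = 0.0188). That call ended without any of 4 libraries, WT day 0 replicates 2 and 3 and WT day 4 replicates 1 and 3 (adjusted p = 0.0585 to 0.0864), with only the groups compared (0.121), and in edgeR (0.332) and DESeq2 (0.511). From day 1 to day 4 limma did not call the difference (0.67 ± 0.52; adjusted p = 0.29) and edgeR did (0.045). The mean of the KO day 4 group was 0.774, and 0.065 without replicate 3.

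Other classical cadherins moved in either direction from day 0 to day 4 in WT. Of the 7 listed cadherins tested, 3 fell, as Cdh19 did, and 2 rose, where 18.9% of all genes fell and 25.7% rose. The 2 that rose were Cdh2, from 1.62 ± 1.74 at day 0 to 84.4 ± 15.2 at day 4 (SD, n = 4; log2 difference 5.30 ± 0.59, limma adjusted p = 8.76e-08), and Cdh15, the M-cadherin of muscle stem cells, from 20.2 ± 6.47 to 172 ± 8.24 (3.09 ± 0.29, limma adjusted p = 4.11e-09).

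S100b fell from day 0 to day 1 in both genotypes. Its WT values were 0.103, 4.63, 3.35 and 1.69 at day 0 and 0.104, 0.0229 (0 reads), 0.0234 (0 reads) and 0.123 at day 1. The KO values were 1.16, 3.83, 12.1 and 7.53 at day 0 and 1.31, 0.024 (0 reads), 0.0261 (0 reads) and 0.0802 at day 1. In each genotype 1 library kept the days from separating: WT day 0 replicate 1, with 1 read, and KO day 1 replicate 1, with 23.

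The log2 differences were -1.45 ± 0.57 in WT (SE; limma adjusted p = 0.0367) and -2.20 ± 0.57 in KO (limma adjusted p = 0.00294). The WT call ended without any of 7 of the 8 libraries compared (adjusted p = 0.0526 to 0.123), all but WT day 0 replicate 1, and with a pseudocount of 5 (0.0887). The KO call was not made by edgeR (0.057). The 2 changes were not shown to differ (difference of the log2 differences -0.75 ± 0.81; limma adjusted p = 0.636). The genotypes did not differ at day 0 by the test (1.00 ± 0.57; limma adjusted p = 0.312).

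At day 4 the WT values of S100b were 2.17, 0.752, 0.431 and 0.144, all above the 4 WT day 1 values, as was so for 33.3% of all genes, but limma did not call the difference (0.70 ± 0.57; adjusted p = 0.32). The lowest day 4 value came from 2 reads, as did each of the day 1 values of 0.104 and 0.123. Their order thus rests on the scaling of the libraries, under the limit of 3 reads. The difference was called by DESeq2 (0.0316) and when only the groups compared were fitted (0.0367). In descending order the group means were 6.15 in KO day 0, 2.45 in WT day 0, 1.48 in KO day 4 (0.232 without replicate 3), 0.875 in WT day 4, 0.359 in KO day 1 and 0.0683 in WT day 1, and each group overlapped the next.

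Mbp was detected in every library and did not pass the test in any comparison. Its WT values were 3.89, 18.9, 7.66 and 8.41 at day 0. They were 5.29, 4.29, 11.5 and 4.45 at day 1, and 8.38, 4.76, 6.64 and 9.8 at day 4. The groups overlapped throughout, and the largest of the 6 differences between these groups, from day 0 to day 1 in WT, was -0.45 ± 0.53 (SE; limma adjusted p = 0.507). In KO it was 3.02, 12.3, 14 and 8.36 at day 0, and 3.56 to 7.54 at day 1. Apart from KO day 4 replicate 3, the 23 libraries lay between 3.02 and 18.9.

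Erbb3, the neuregulin receptor, rose in WT cells from day 1 to day 4. The day 1 values were 1.27, 0.0229 (0 reads), 0.258 and 0.0738, and the day 4 values 7.76, 12.4, 5.6 and 8.71. The lowest day 4 library was thus above the highest at day 1, as was so for 33.3% of all genes. The mean went from 0.405 ± 0.583 to 8.6 ± 2.82 (SD, n = 4), a 21.2-fold difference (log2 difference 2.81 ± 0.74, SE; limma adjusted p = 0.00295, and 0.000637 without KO day 4 replicate 3). The fold depends on WT day 1 replicate 1, without which it was 72.8.

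At day 0 the Erbb3 values were widely spread in both genotypes: 0.0344 (0 reads), 10.2, 1.42 and 5.35 in WT, and 0.0332 (0 reads), 5.55, 0.0276 (0 reads) and 0.594 in KO. Day 0 overlapped both later days, and the test did not call day 1 (-1.46 ± 0.74; limma adjusted p = 0.103) or day 4 (1.35 ± 0.74; limma adjusted p = 0.143) against it in WT. The day 1 difference passed without WT day 0 replicate 1 (0.0239) and the day 4 difference without WT day 0 replicate 2 (0.048). In KO cells Erbb3 was 0.0833 to 1.03 at day 1 and 17.7, 6.7, 0.0341 (0 reads) and 8.66 at day 4. Without replicate 3 the KO day 4 mean was 11, 2.84 above day 1 on the log2 scale.

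Ligands and partners of Erbb3 were read alongside. Of the 10 tested genes of the ErbB list, 3 rose and 2 fell from day 0 to day 4 in WT, beside the 25.7% and 18.9% of all genes. Nrg1, the neuregulin that Erbb3 binds, was 0.414 ± 0.756 at day 0, 0.303 ± 0.39 at day 1 and 6.71 ± 2.05 at day 4 (SD, n = 4; day 4 against day 0 2.54 ± 0.46, limma adjusted p = 8.84e-05). Egf and Btc, ligands of Egfr, also rose. Egfr fell from 246 ± 15.1 at day 0 to 94.9 ± 16.9 at day 4, and Errfi1, a feedback inhibitor of the receptors, from 1560 ± 181 to 250 ± 24.9.

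Erbb2, the co-receptor through which Erbb3 signals, was between 4.93 and 13.4 in WT day 4 libraries, and 33.2 in KO day 4 replicate 3, its highest value of 24. That library combined the highest Erbb2 with 0 Erbb3 reads, and had an Nrg1 value of 5.36, against 14.4 for the highest library.

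Ngfr was between 1.10 and 2.15 in 7 of the 8 WT libraries of days 0 and 1, and higher at day 4. The WT values were 0.447, 2.15, 2.12 and 2.03 at day 0. They were 1.27, 1.17, 1.10 and 2.14 at day 1, and 6.45, 6.19, 5.43 and 2.56 at day 4. Every day 4 library was above every WT library of the earlier days, as for 21.7% of all genes from day 0 to day 4. Ngfr rose from day 1 to day 4 (mean 1.42 ± 0.486 to 5.16 ± 1.79, SD, n = 4; log2 difference 1.31 ± 0.54; limma adjusted p = 0.0468), a call close to the threshold that ended in edgeR (0.12), in DESeq2 (0.0585), with quantile normalization (0.331), a pseudocount of 0.5 (0.0643) or the replicate number as a block (0.056), and without any of 8 libraries (0.0515 to 0.104), the 4 WT day 1 libraries, WT day 4 replicates 1 to 3 and KO day 4 replicate 4.

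Against day 0 the difference in Ngfr was 1.21 ± 0.54 and was not called (limma adjusted p = 0.0726). KO libraries varied more within a group: 6.07, 0.107, 1.30 and 2.51 at day 0, 0.361, 5.3, 0.443 and 3.66 at day 1, and 1.61, 6.29, 2.01 and 3.86 at day 4. No genotype difference passed the test (0.14 ± 0.54 at day 0 and 0.21 ± 0.54 at day 1). Neighbouring groups in the order of means, from WT day 4 (5.16) through KO day 4 (3.44), KO day 0 (2.5), KO day 1 (2.44) and WT day 0 (1.69) to WT day 1 (1.42), all overlapped.

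Among the neurotrophin genes and partners of Ngfr, Ntf3, a neurotrophin, fell in WT from 117 ± 25.4 at day 0 to 9.39 ± 2.35 at day 4 (SD, n = 4; log2 difference -3.50 ± 0.36; limma adjusted p = 2.55e-08). Bex3, an adaptor that binds the intracellular part of Ngfr, rose from 34.8 ± 9.02 to 58.8 ± 10.2 (0.75 ± 0.24; limma adjusted p = 0.0146). Of 8 tested genes on this list, 1 rose and 3 fell in that comparison, beside 25.7% and 18.9% of all genes; the others that fell were Bex1 and Maged1. At day 0 Bdnf, another neurotrophin, was higher in KO than in WT (17.3 ± 10.3 against 6.0 ± 8.51; 2.17 ± 0.69; limma adjusted p = 0.0478), the 1 listed gene called there.

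Pmp22 carried most of the reads and was the one member whose genotypes separated at days 0 and 1. At day 0 the WT libraries had 246, 403, 345 and 288 and the KO libraries 614, 608, 606 and 491, so that every KO library was above every WT library. At day 1 the order was the reverse, with 376, 394, 361 and 337 in WT and 240, 244, 243 and 186 in KO. Of all genes, 3.16% were higher in KO without overlap at day 0, and 12.3% were lower without overlap at day 1.

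The KO mean was 580 ± 59.3 against 321 ± 68.4 in WT at day 0 (SD, n = 4), a log2 difference of 0.87 ± 0.34 (SE) that was not called (limma adjusted p = 0.112). Without KO day 4 replicate 3, whose Pmp22 value widens the shared spread, the SE was 0.21 and the difference was called (0.0109). That was 1 of 34 settings. It was not called when only the compared groups were fitted (0.0836), by edgeR (0.141) or by DESeq2 (0.0757). At day 1 the KO mean was 229 ± 28.3 against 367 ± 23.9, a difference of -0.69 ± 0.34, which was likewise not called with all libraries (0.283) and called without that one (0.0439), or when only the compared groups were fitted (0.00256). These were 2 of 34 settings, and edgeR (0.319) and DESeq2 (0.129) did not call it.

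The change of the Pmp22 genotype difference from day 0 to day 1 was itself tested, and passed (-1.56 ± 0.48, SE; limma adjusted p = 0.0356, and 0.00128 without KO day 4 replicate 3). The KO level fell over that day (580 to 229; -1.34 ± 0.34; limma adjusted p = 0.00232), whereas the WT difference was 0.22 ± 0.34 (limma adjusted p = 0.629). The call on the genotype difference ended without any of 12 libraries, each of day 0 or day 1 (adjusted p = 0.0509 to 0.0749), in edgeR (0.0506) and with quantile normalization (0.0513).

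By day 4 Pmp22 was far lower in WT, at 56.8, 27.1, 50.8 and 49.6. The mean of 46.1 ± 13 was 6.96-fold below day 0 (-2.80 ± 0.34; limma adjusted p = 3.71e-07) and 7.97-fold below day 1 (-3.02 ± 0.34; limma adjusted p = 1.05e-07). KO day 4 libraries were at 50.1, 39.1, 246 and 82.6. Their mean was 104, and 57.3 without replicate 3. The order of means was KO day 0, WT day 1, WT day 0, KO day 1, KO day 4 and WT day 4, and WT day 1 with WT day 0, and KO day 4 with WT day 4, were the neighbours that overlapped once replicate 3 was left out.

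Of 10 markers of fibro-adipogenic progenitors, mesenchymal cells of muscle, 3 were called higher in KO at each of these days, Col1a1, Col3a1 and Gsn, where 4.82% of all genes were at day 0 and 7.12% at day 1. All 10 were in the table, and their summed level was 2120 to 2500 in KO and 953 to 1270 in WT at day 0, and 1720 to 2470 against 874 to 1260 at day 1. Pdgfra, a defining marker, had 0 reads in all 4 WT day 0 libraries. The summed level was thus higher in KO at both days, while Pmp22 was higher in KO at day 0 and lower at day 1.

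The summed level of mature myofibre markers, contractile and metabolic genes of the muscle fibre, was higher in KO at day 0 and lower at day 1, as was the level of Pmp22. The 9 in the table summed to 35.2 to 77.0 in KO and 6.91 to 29.8 in WT at day 0, and to 15.6 to 57.0 in KO and 175 to 253 in WT at day 1. Between days in WT the sum and Pmp22 did not move alike. At day 4 the WT sum was 135 to 316, where Pmp22 was at 27.1 to 56.8. At day 0, 3 of the 9 were called higher in KO and 0 lower, and at day 1, 7 were called lower and 0 higher, where 2.08% of all genes were lower. The change of the genotype difference passed for 7, all towards lower in KO, where 4.1% of all genes passed in that direction. Of 8 perineurial and endoneurial genes, Cldn1, a tight-junction protein, was higher in KO at day 0 (40.5 ± 17.7 against 5.98 ± 4.02, SD, n = 4; 2.66 ± 0.56, limma adjusted p = 0.00302) and lower at day 1 (0.48 ± 0.839 against 8.37 ± 5.34; -2.44 ± 0.56, limma adjusted p = 0.00466). The list as a whole did not follow Cldn1 at day 1. Its 8 genes summed to 130 to 233 in KO and 66.9 to 89.4 in WT at day 0. At day 1 they summed to 145 to 173 in KO and 96.5 to 114 in WT. At day 0, 2 of the 8 were called higher in KO and 0 lower, where 4.82% of all genes were higher. At day 1, 0 were called higher and 1 lower, Cldn1, where 2.08% of all genes were lower. The part of these cell types in the Pmp22 differences was not tested.

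Of 5 tested relatives of Pmp22, 3 were higher in KO at day 1 and 0 were lower, where 7.12% of all genes were higher and 2.08% lower. Emp1, of the same family of small membrane proteins, was higher in KO at day 0 (544 ± 35.3 against 312 ± 51.4, SD, n = 4; 0.81 ± 0.15, limma adjusted p = 0.00117) and also at day 1 (311 ± 57.6 against 79.7 ± 13.1; 1.95 ± 0.15, limma adjusted p = 2.69e-09). Emp2 and Emp3 were higher in KO at day 1 as well, at 159 ± 14.2 against 105 ± 7.3 and 254 ± 30.1 against 166 ± 24.8. The other 2 were not called, with KO means of 100 against 103 for Tmem47 and 0.33 against 1.29 for Perp.

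Of 15 tested genes of the wider list of Schwann cell genes, 0 rose and 5 fell from day 0 to day 1 in WT, where 27.7% of all genes rose and 24.9% fell. In KO 0 rose and 7 fell, beside 24.2% and 21.5% of all genes, and from day 0 to day 4 in WT 1 rose and 7 fell, beside 25.7% and 18.9%. The median log2 difference was -0.65, -1.52 and -1.21 in these comparisons, beside -0.01, -0.01 and 0.23 over all genes. Cldn19, a tight-junction protein of myelinating Schwann cells, fell in WT from 4.66 ± 2.07 at day 0 to 0.267 ± 0.201 at day 1 (SD, n = 4; -2.10 ± 0.31, limma adjusted p = 3.47e-06), and Gldn from 5.64 ± 5.64 to 0.222 ± 0.365 (-1.93 ± 0.69, limma adjusted p = 0.0219). Dhh had 0 reads in all 8 day 1 libraries, as did Sox10 and Cdh19.

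Ptprz1, a receptor phosphatase of glia, fell in steps in WT, from 85.3 ± 15.4 at day 0 through 25.9 ± 7.61 to 3.96 ± 2.3 at day 4 (SD, n = 4; day 4 against day 0 -4.27 ± 0.42, limma adjusted p = 1.11e-08). Sox9, the 1 gene of the list that rose, went from 16.2 ± 4.48 at day 0 to 34.8 ± 8.5 at day 4 (1.06 ± 0.27, limma adjusted p = 0.00244) and is known for its part in cartilage formation. Egr2, the master regulator of myelination and an immediate early gene elsewhere, was the 1 listed gene that differed at day 1 between genotypes, at 12.4 ± 4.76 in KO and 44.5 ± 8.79 in WT (-1.81 ± 0.49, limma adjusted p = 0.0168). At day 0 only Art3 differed, higher in KO (30.0 ± 17.2 against 8.44 ± 7.41; 2.16 ± 0.66, limma adjusted p = 0.04).

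Of 7 tested regulators of the Schwann lineage, 1 rose and 3 fell from day 0 to day 1 in WT, beside 27.7% and 24.9% of all genes. Pax3, a paralogue of Pax7 found in immature Schwann cells and in muscle progenitors, fell from 92.2 ± 34.7 to 11.6 ± 4.77 (SD, n = 4; -2.90 ± 0.40, limma adjusted p = 1.55e-06). Zeb2, a repressor needed for myelination, fell from 497 ± 44.4 to 76.2 ± 6.9 (-2.69 ± 0.13, limma adjusted p = 7.04e-14). Jun, which drives the repair state of Schwann cells and is an immediate early gene, was lower in KO than in WT at day 0 (62.3 ± 12.4 against 108 ± 28.4; -0.77 ± 0.24, limma adjusted p = 0.0406).

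Summed markers of other cell types also differed between the days. The 7 endothelial markers in the table summed to 148 to 269 in WT at day 0, 25.7 to 43.2 at day 1 and 6.87 to 19.3 at day 4, and to 85.5 to 182 at day 0 and 18.9 to 28 at day 1 in KO. The 10 macrophage and monocyte markers summed to 17.6 to 112, 6.8 to 25.1 and 1000 to 1440. The 5 neuronal markers in the table summed to 3.49 to 8.08, 1.94 to 3.63 and 9.34 to 15.2 in WT, and to as much as 22.8 in KO day 0 replicate 1. Of the 3 that were tested, 2 rose from day 0 to day 4 in WT, Uchl1 (0.228 ± 0.259 to 4.4 ± 1.11; limma adjusted p = 6e-06) and Tubb3 (1.11 ± 2.06 to 5.36 ± 2.46; limma adjusted p = 0.0201). The 5 melanocyte markers, another Sox10 lineage, summed to 15.6 to 34.9, 6.35 to 10.5 and 27.9 to 50.7. The part of these cell types in the differences of the glial markers was not tested.

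Within WT day 0, replicate 2 was the highest of the 4 libraries for 7 of 7 members, and replicate 1 was the lowest for 7 of 7. Replicates 3 and 4 kept no fixed order. The share of all genes for which these libraries were highest or lowest of their group was not counted, so the order cannot be called particular to the members. The wider Schwann cell list shared this at most in part. Replicates 1 to 4 were highest for 2, 4, 5 and 4 of its 16 genes, and alone had the fewest reads for 6, 4, 2 and 1. Replicate 1 had more than 3 reads of only 1 of the 5 sparser genes (Sox10, S100b, Ngfr, Erbb3 and Cdh19), and replicate 2 of all 5. No KO day 0 library was highest of its group for more than 2 members, while on the wider list KO day 0 replicates 1 and 2 were highest for 5 genes each.

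The genes most like each member in pattern were found over the 23 libraries other than KO day 4 replicate 3, by Pearson's r of log2 values among genes with a mean of at least 8. For Pmp22 they included Colec12 (0.968) and Rhoj (0.967). For Erbb3 they were Rbm26 (0.887), Golga4 (0.858) and Eml4 (0.855), and for S100b Slc12a2 (0.841), Suco (0.799) and Upf3b (0.795). For Mbp, Ngfr, Sox10 and Cdh19 the highest r was 0.712, 0.739, 0.665 and 0.778. These values describe the libraries, which share injury day and depth, and those of Sox10 and Cdh19 rest on 5 libraries each with a value of at least 1.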

How the data were processed

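RNA of muscle stem cells was measured in 24 libraries; per the labels' protocols the kit was SMART-Seq v4. Per the submitters' processing notes, FastQC, STAR, RSEM and limma were used with mm39, and no versions are given. Strand use is not given in the sources used here, so reads of overlapping antisense genes cannot be told apart. The deposited values are a linear normalised signal, which the authors made from counts: adding 0.5 to a whole count and dividing by a scaled library size gives each of them, and with the lowest value of a library as a count of 0, 100% of values came out whole within 0.02.

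The 16985 genes that reached a value of 1 in 4 or more libraries were fitted with limma 3.58.1 in R 4.3.3 on log2(value + 1), with all 24 libraries in 6 groups; such fold changes understate those of low genes. Tests were two-sided, adjusted by Benjamini-Hochberg within a comparison, with a threshold of 0.05; all samples carry 1 batch label. Count tests (DESeq2 1.42.0 and edgeR 4.0.16, on the recovered whole reads), other filters, pseudocounts and scalings, and leaving out each library were alternatives. The fitting was tested on simulated data.

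The members, gene lists and tests were chosen with earlier results of these data known. Named genes are all members, at most 3 genes per list, direction and comparison with the largest log2 difference past the threshold, and the 15 genes of highest ratio in KO day 4 replicate 3; Dhh, Nrg1 by group, Erbb2, Tmem47, Perp and the other listed genes given by library were named after their values were seen. Some listed genes are not reported here and were left out of the list counts and medians, not out of the fits. Promoter sequences are from RefSeq on GRCm38.p6, another build than that of the counts, and are shown for their letters only.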

Additional observations from a re-analysis of the deposited data

Results flagged for a closer look

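In 4 of 30 sets of 4 libraries with at least some reads, KO day 4 left out because its values chose the genes, 1 library lay further from the rest than chance places about 1 set in 20. S100b was 1.31 in KO day 1 replicate 1 and 0.024 to 0.0802 in the other 3. Ngfr was 0.447 in WT day 0 replicate 1 and 2.03 to 2.15 in the others. Pmp22 was 491 in KO day 0 replicate 4, where the others were at 606 to 614, and 186 in KO day 1 replicate 4, where the others were at 240 to 244. The genotype difference of Pmp22 changed by -1.56 on the log2 scale from day 0 to day 1, by the test of that change (limma adjusted p = 0.0356).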

How the results depend on the processing

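Each count of members called was recomputed under 33 alternatives, 24 of which left out 1 library. In KO against WT at day 0, the count of 1 became 0 with a stricter filter (5 or more in 8 or more libraries), with only the groups compared and with edgeR, and was 1 to 2 when single libraries were left out. At day 1, the count of 0 became 1 with only the groups compared, and 0 to 1 without single libraries. From day 0 to day 1 in WT, the count of 2 became 0 with the stricter filter and 1 with a pseudocount of 5, 3 with edgeR, DESeq2 or quantile normalization, and 1 to 4 without single libraries. From day 0 to day 4, the count of 2 became 1 with the stricter filter, only the groups compared, edgeR or DESeq2, 3 with quantile normalization or a pseudocount of 5, and 1 to 2 without single libraries. From day 1 to day 4 the count of 3 became 4 with only the groups compared, 2 with the stricter filter, quantile normalization, the replicate block or a pseudocount of 0.5, and 2 to 3 without single libraries. From day 0 to day 1 in KO, the count of 2 became 1 with the stricter filter and with edgeR. For the change of the genotype difference, the count of 1 became 2 with the replicate block and with a pseudocount of 5, 0 with edgeR, and 0 to 2 without single libraries. The stricter filter tests fewer genes and drops the sparse members; the cause of the other shifts was not tested. For single genes, in the 21 pairs of gene and comparison called under at least 1 setting, 617 alternative values kept direction and call, 45 lost the call, 19 gained it, and none changed sign.

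In their deviations from group means, same-numbered libraries had correlations of -0.02 to 0.27, the highest for replicate 3 of KO and WT at day 1. Libraries with different numbers were not compared, so these values cannot settle whether the numbers pair the libraries. With the replicate number as a block, Ngfr from day 1 to day 4 in WT was not called (adjusted p = 0.056) and the change of the Cdh19 genotype difference was (0.0452, and 0.0533 without the block); no other call on a member changed. Quantile normalization moved the median of all genes from 0.23 to -0.02 (log2) between day 0 and day 4 in WT, and from 0.22 to 0.00 between day 1 and day 4; relative to the median, the change of Ngfr from day 1 to day 4 was 0.67 there. On the recovered counts edgeR called 772 genes higher and 775 lower in KO at day 0, and 1168 and 239 at day 1, where limma called 819 and 837, and 1209 and 353. Depth limits Sox10 and Cdh19 most, which had 0 reads in 14 and 17 libraries.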
